A study of Mus musculus with 2 samples.

Results

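The 32 genes described here act in late G2 and in mitosis. They encode cyclins and CDK1, mitotic kinases, checkpoint and kinetochore proteins, partners of the anaphase-promoting complex, kinesin motors, spindle proteins, cytokinesis regulators and proteins of mitotic chromosomes. They were listed by gene symbol and no measured value enters the rule, but the list was made with earlier results of these data known. The choice was therefore not blind to the data. All 32 were found, and they are 32 of the 55450 annotated genes with a symbol in the tables. The libraries hold poly(A)-selected RNA of macrophages that were grown in culture from bone marrow of C57BL/6J mice, an inbred strain. All cells had received a stimulus at 100 ng/mL and were taken after 300 min. The labels call this stimulus Lipid A in one field and lipoprotein A, a protein, in others, so no more specific name is used here. There is 1 group of 2 libraries, labelled biological replicates 1 and 2, with separate biosample records and a shared donor record. The labels do not say whether the cultures were grown separately. Age and sex are given as not collected. No unstimulated cells were analysed here, so the values are levels after the stimulus and differences between the libraries, and none of them is a response to it.

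A cell enters mitosis when CDK1 bound to cyclin B becomes active, the mitotic kinases and kinesins then build the spindle, and the checkpoint holds the anaphase-promoting complex until every chromosome is attached. Most genes of this programme are silent in resting cells and are transcribed together late in the cell cycle. Their promoters typically carry a cell cycle gene homology region (CHR), the hexamer that the MuvB protein complex binds, and CCAAT boxes, which NF-Y binds. Together with Rbl1 or Rbl2 and an E2F protein, MuvB forms the DREAM complex, which represses these genes. Together with Mybl2 and Foxm1 it activates them. Bone marrow-derived macrophages divide in culture in response to M-CSF, the growth factor used to obtain them.

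The promoters carried these elements in most of the genes. RefSeq promoter windows on GRCm38.p6, from 250 bases before to 50 bases after the annotated start, were found for 27 of the 32 genes, 29 windows in all. There was no entry for Aurkb, Ccna2, Shcbp1, Kif20a or Tpx2, and Ect2 and Prc1 had a pair of starts each. The CHR hexamer was searched as TTTGAA or TTCGAA on both strands. It was present in 25 of 29 windows (86.2%, 23 of 27 genes), while 19.2% of all 32851 windows of the table held it. CCAAT, on both strands, was present in 26 of 29 windows (89.7%), compared with 37.4% of all windows. Both were present in 24 windows (82.8%), compared with 7.52% of all. Within 100 bases before to 50 after the start, both were present in 20 of 29 windows (69%) and in 2.09% of all windows. Neither TTTGAA nor TTCGAA was found in the windows of Birc5, Ccnb1, Cenpe and Nusap1. Other forms of the element were not searched, so its absence from these windows is not shown. These shares describe letters in the reference and were not tested, and a match is not a binding site. The gene list was drawn up around known mitotic genes, many of which are known for these elements.

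The stretches below run from 120 bases before the annotated start to 29 bases after it, 5′ to 3′ along the gene, with CHR and CCAAT matches of either strand in capitals. Ube2c, Top2a, Ccnb2 and Cdk1 are shown because they differed strongly between the libraries, and Mki67, Kif4 and Kif23 because they did not differ past 2-fold. Ccnb1 is shown because it had CCAAT boxes without either form of the CHR hexamer searched. In Top2a the CHR match at 120 bases before the start lies at the left edge and another lies 23 bases before the start.
Ube2c (chr2:164769809-164769958, plus strand): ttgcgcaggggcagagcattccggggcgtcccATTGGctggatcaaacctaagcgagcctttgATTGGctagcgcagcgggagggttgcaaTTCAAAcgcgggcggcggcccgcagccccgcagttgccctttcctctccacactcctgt
Top2a (chr11:99024160-99024309, minus strand): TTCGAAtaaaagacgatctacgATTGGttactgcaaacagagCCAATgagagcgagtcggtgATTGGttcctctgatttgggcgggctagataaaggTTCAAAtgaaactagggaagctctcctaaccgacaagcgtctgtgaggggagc
Ccnb2 (chr9:70421525-70421674, minus strand): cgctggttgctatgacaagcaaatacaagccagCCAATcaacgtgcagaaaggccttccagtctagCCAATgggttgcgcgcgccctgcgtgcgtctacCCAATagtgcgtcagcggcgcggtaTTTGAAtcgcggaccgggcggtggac
Cdk1 (chr10:69352883-69353032, minus strand): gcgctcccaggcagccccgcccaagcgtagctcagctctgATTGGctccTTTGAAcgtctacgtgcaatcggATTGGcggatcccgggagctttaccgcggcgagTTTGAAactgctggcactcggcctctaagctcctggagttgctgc
Ccnb1 (chr13:100786457-100786606, minus strand): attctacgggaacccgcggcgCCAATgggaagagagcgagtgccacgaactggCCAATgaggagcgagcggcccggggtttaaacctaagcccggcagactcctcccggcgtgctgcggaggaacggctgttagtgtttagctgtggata
Mki67 (chr7:135716350-135716499, minus strand): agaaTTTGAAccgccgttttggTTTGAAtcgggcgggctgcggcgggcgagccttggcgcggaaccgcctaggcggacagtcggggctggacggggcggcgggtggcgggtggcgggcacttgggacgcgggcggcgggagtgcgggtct
Kif4 (chrX:100625945-100626094, plus strand): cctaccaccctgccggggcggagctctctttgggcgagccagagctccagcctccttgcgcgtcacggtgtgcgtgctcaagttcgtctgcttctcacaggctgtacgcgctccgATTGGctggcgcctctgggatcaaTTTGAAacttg
Kif23 (chr9:61946770-61946919, minus strand): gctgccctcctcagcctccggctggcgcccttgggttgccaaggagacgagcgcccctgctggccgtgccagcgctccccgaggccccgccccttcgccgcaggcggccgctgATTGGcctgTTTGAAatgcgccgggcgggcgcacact

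The CHR matches lay close to the start. In the 25 bases from the start onward, 10 of the 29 windows (34.5%) had one, compared with 1.43% of all windows. CCAAT matches lay mainly before the start, with 12 windows (41.4%) holding one between 75 and 50 bases before it, compared with 6.99% of all windows. In the 25 bases just before the start, 11 windows (37.9%) held one, compared with 4.05% of all windows. Ccnb2 had a CHR match beginning 4 bases after the start and another 167 bases before it, outside the stretch shown. In Kif23 the match began 2 bases after the start, in Kif4 it began 19 bases after it, and in Mki67 the matches stood at 116 and 98 bases before it. Mki67 also had CCAAT matches at 188, 166 and 141 bases before the start, outside the stretch shown. Top2a had CHR matches at 179 and 140 bases before it, also outside. Further CCAAT matches of Ube2c, Top2a, Cdk1 and Kif4 lie outside the stretches as well.

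**Figure D1:**
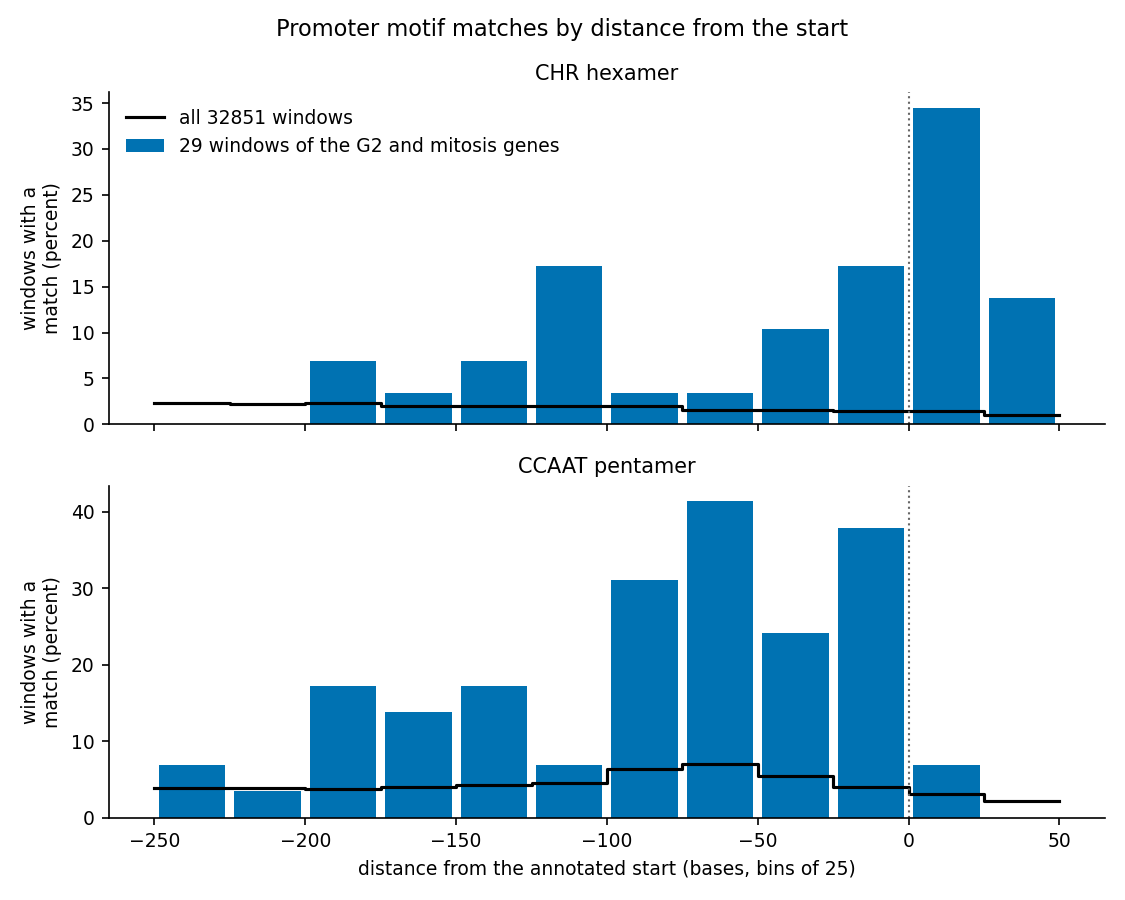
Share of promoter windows (percent) with a CHR hexamer (upper panel) or a CCAAT pentamer (lower panel) on either strand, by distance of the match from the annotated start in bins of 25 bases. Bars are the 29 windows of the G2 and mitosis genes, the black line is all 32851 windows of the RefSeq table, and the dotted line is the start. The tallest CHR bar lies just after the start, at 34.5% of windows.

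Most of the 32 transcripts were scarce, and a few were not. Expected counts, which are estimated reads per gene, summed to 38023141 in replicate 1 and 63643501 in replicate 2, and the 32 genes held 8394 and 13262 of them. In TPM, which is scaled to transcript length and to the same total in each library, 19 genes reached 1 TPM in replicate 1, 9 in replicate 2 and 8 in both. The gene that reached it in replicate 2 alone was Bub1b, and 12 genes stayed below it in both libraries. Over the 32 genes the median TPM was 1.57 in replicate 1 and 0.65 in replicate 2, a mean of 1.11 ± 0.647 TPM (SD, n = 2). By mean TPM, 4 genes reached 5 TPM, 12 lay between 1 and 5 TPM, and 16 lay below 1 TPM. The order from the top was Tpx2, Cdk1, Mki67 and Ube2c, and the lowest was Cenpf at 0.05 TPM. Of these 4, Tpx2 lay above the others in each library. The ranges of Cdk1, Mki67 and Ube2c over the libraries overlapped, so their order does not exceed the spread. Tpx2 made up 25.4% of the summed TPM of the 32 genes in replicate 1 and 65.4% in replicate 2. Without it the genes summed to 83.0 and 30.8 TPM, so the sum of the other 31 genes was lower in replicate 2 although Tpx2 itself was higher. In bulk RNA a smaller share of cells in G2 or mitosis and less RNA per such cell cannot be told apart.

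**Figure D2:**
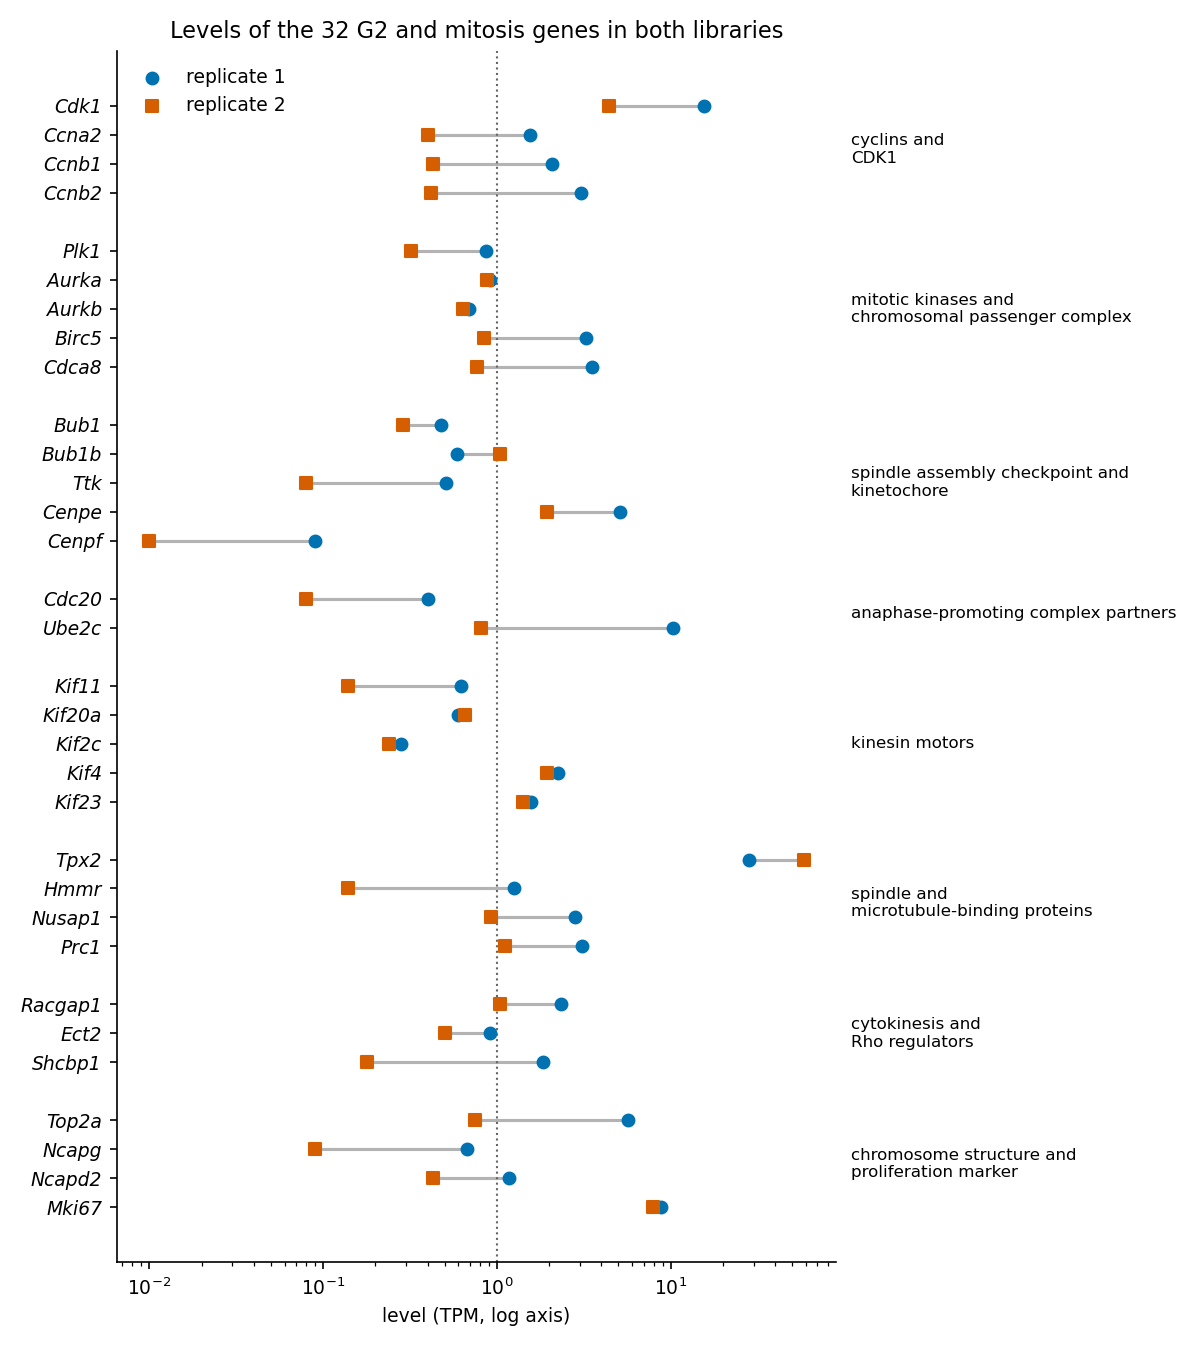
Level of each gene in TPM on a log axis, grouped by role, with replicate 1 as blue circles and replicate 2 as orange squares joined by a grey line; the dotted line is 1 TPM. Most squares lie left of their circles, while Tpx2 has its square on the right at 58.3 TPM and Mki67, Kif4 and Kif23 have nearly coinciding symbols.

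Most of these genes were higher in replicate 1. Log2 ratios were taken from counts scaled by TMM, a normalization of library sizes, as replicate 2 minus replicate 1. With 1 library on each side the difference has no replicate check, so no p-value is given and a gene past 2-fold is only described as such. Of the 32 genes, 22 were past 2-fold higher in replicate 1, while 9.83% of all 13260 genes tested were. In the other direction only Tpx2 was past 2-fold, while 6.98% of all genes were. The median ratio of the 32 genes was -1.36, compared with -0.01 over all genes tested. Genes with few counts were past 2-fold more often, so like counts are the nearer background. Of the 13 genes with fewer than 100 summed counts, 8 were past 2-fold higher in replicate 1 (23.1% of all tested genes with such counts), and of the 13 with 100 to 300 summed counts, 11 were (16.1%). All 32 passed the filter on low counts, but Bub1, Cdc20, Cenpf, Ncapg and Ttk did so through replicate 1 alone. Without these 5 genes, 17 of 27 were past 2-fold, compared with 7.42% of all genes that reached the filter's minimum in both libraries, and the median was -1.16. The exact 95% interval of the ratio, which covers counting error only, lay below 0 for 23 genes, held 0 for 8 and lay above 0 for 1. It lay wholly past 2-fold for 15 of the 22 genes.

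**Figure D3:**
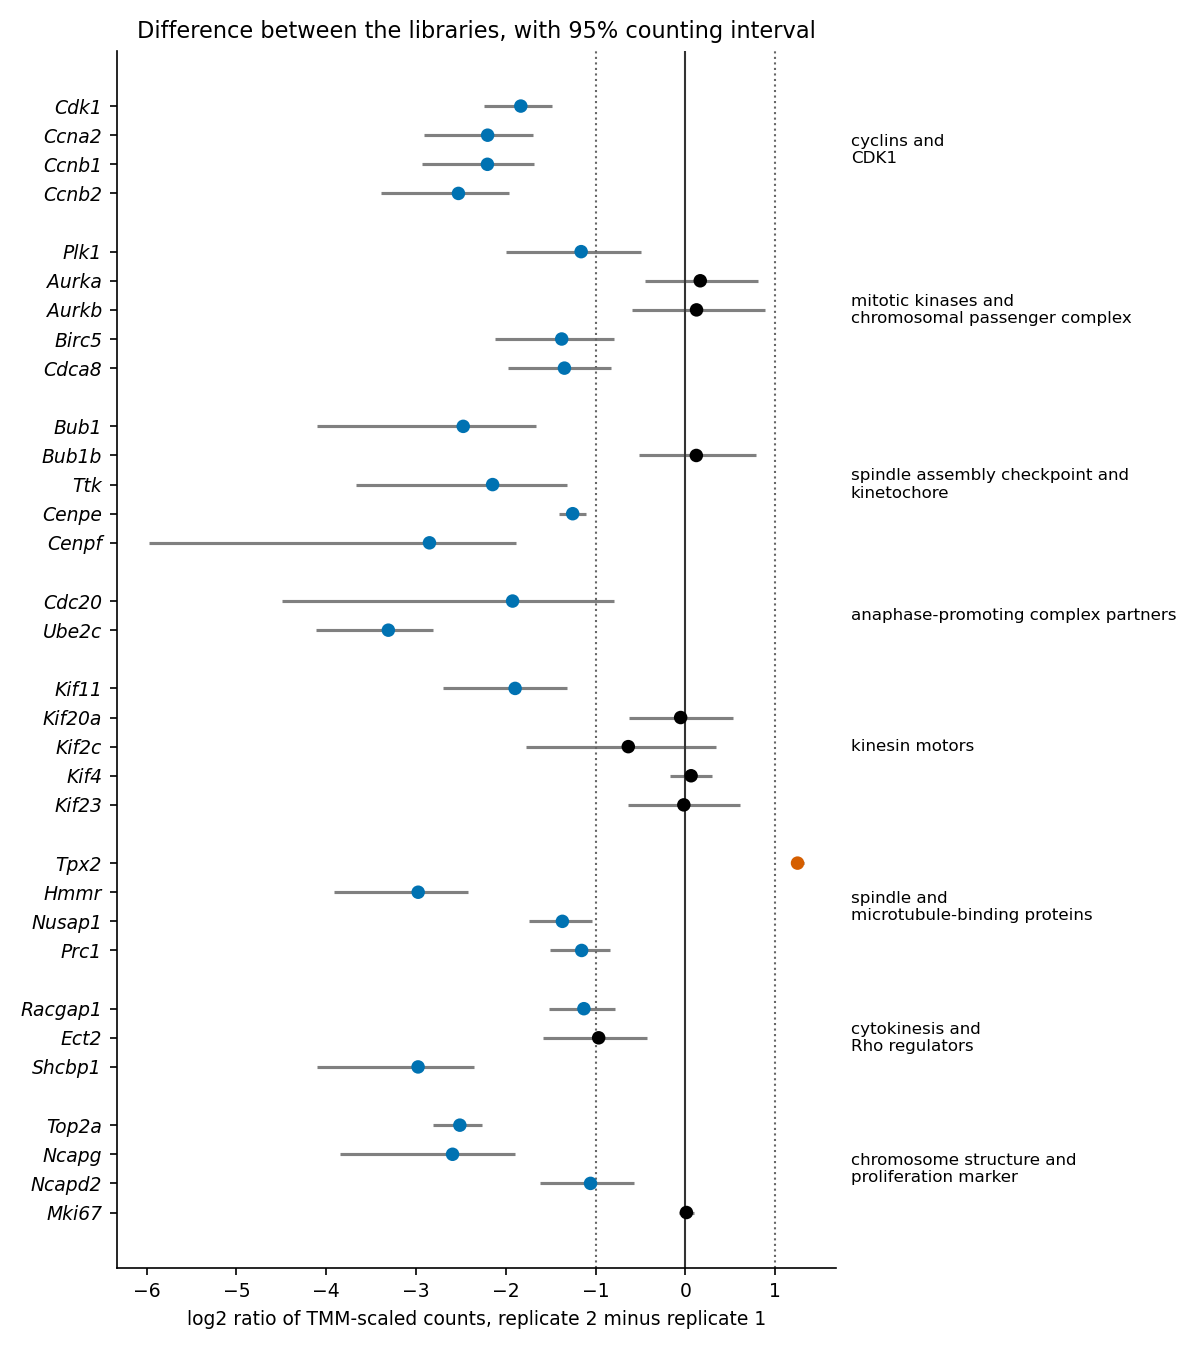
Log2 ratio of TMM-scaled counts, replicate 2 minus replicate 1, for each gene by role, with the exact 95% interval of counting error as a bar; dotted lines mark 2-fold. Blue points are past 2-fold higher in replicate 1, the orange point (Tpx2, at 1.25) is past it in replicate 2, and black points lie within 2-fold. All 4 cyclin and CDK1 genes lie left of the line at -1, while 4 of the 5 genes grouped as kinesin motors lie within 2-fold.

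Markers of other cells also differed between the libraries. The 14 neutrophil and granule genes, which mark neutrophils and their marrow precursors, summed to 519 TPM in replicate 1 but to 27.5 TPM in replicate 2, and 9 of the 10 that could be tested were past 2-fold higher in replicate 1, led by S100a9 at 316 and 10.2 TPM. Of the 10, Camp, Elane, Mpo and Prtn3 passed the filter through replicate 1 alone, and without them 5 of 6 were past 2-fold, compared with 7.42% of all genes that reached its minimum in both libraries. Ly6g was at 0 counts in both libraries, and the primary granule genes Mpo and Elane had 35 and 13 counts in replicate 1 and 5 and 3 in replicate 2. The 6 platelet and megakaryocyte genes summed to 767 and 107 TPM, nearly all of it Pf4 at 753 and 105 TPM. The 10 progenitor genes stayed below 1 TPM each, with sums of 2.34 and 2.42 TPM, and Hoxa9 was at 0. The 10 macrophage identity genes reached 1 TPM in each library, and their medians were 443 and 572 TPM. The 8 erythroid genes summed to 357 and 54.1 TPM, nearly all of it the transferrin receptor gene Tfrc at 356 and 53.7 TPM, with Klf1 at 0 counts. The 8 lymphocyte genes summed to 2.06 and 0.6 TPM and the 6 osteoclast genes to 199 and 107 TPM. Most of the latter was Acp5 at 188 and 87.0 TPM, while Nfatc1, with a ratio of 1.10, was past 2-fold higher in replicate 2, and the median ratio of the 3 osteoclast genes tested was 0.62. Whether these cells had a part in the levels of the mitotic genes was not tested.

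Base composition moved with the ratio as well. Of all tested genes, those in the lowest of 5 equal groups by GC content (28.7% to 44.0%) had a median ratio of -0.51 and 22.9% of them were past 2-fold higher in replicate 1, whereas in the other groups 5.62% to 8.94% were. Of the 11 mitotic genes in that lowest group 10 were past 2-fold higher in replicate 1, among them Top2a, Hmmr and Shcbp1. In the next group 3 of 5 were, in the middle group 5 of 10, in the fourth 2 of 4 and in the highest, Cdc20 and Plk1, 2 of 2. With the GC and length trend of all genes removed, the same 22 genes were past 2-fold (6.83% of all genes) and the median was -1.35.

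**Figure D4:**
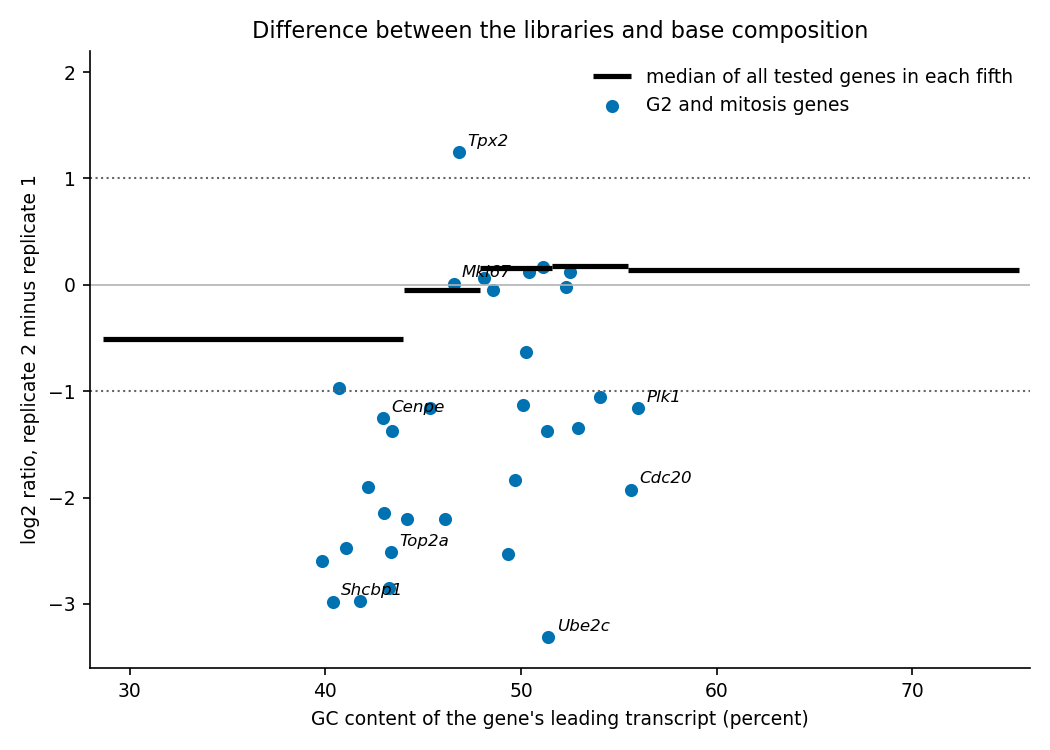
Log2 ratio, replicate 2 minus replicate 1, against the GC content in percent of the leading transcript. Points are the 32 genes, black bars are the medians of all tested genes in 5 equal groups by GC content, and dotted lines mark 2-fold. Points past 2-fold occur at all GC contents the genes span, with Ube2c lowest at -3.31.

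CDK1 and its cyclins were all higher in replicate 1. Cdk1, the kinase that starts mitosis (ENSMUSG00000019942.13, chr10:69335146-69352938, minus strand, mm10), had 15.6 TPM from 210 counts in replicate 1 and 4.42 TPM from 84 counts in replicate 2, a log2 ratio of -1.83 (95% counting interval -2.24 to -1.49). In both libraries its leading transcript was Cdk1-204, a retained-intron model of 475 bases with no annotated coding sequence, which took 56.1% and 70.7% of the gene's TPM from 44.6 and 29.7 counts. The coding transcript Cdk1-202, of 1253 bases, held more counts, 135 and 46.5, but 5.53 and 1.12 TPM. Thus the high TPM of Cdk1 rests in large part on a short model. Ccnb2, cyclin B2, had 3.03 TPM from 95 counts and 0.42 TPM from 22 counts, a ratio of -2.53 (-3.39 to -1.97). Cyclin B1 (Ccnb1) had 2.08 and 0.43 TPM from 101 and 30 counts, and cyclin A2 (Ccna2), which acts from S phase into early mitosis, had 1.55 and 0.40 TPM from 104 and 31.3 counts. Both had a ratio of -2.20, with intervals of -2.93 to -1.69 and -2.91 to -1.70. The 3 cyclins thus lay at 1.55 to 3.03 TPM in replicate 1 and at 0.40 to 0.43 TPM in replicate 2, without overlap. Cdk1 exceeded Ccnb1 7.5-fold in replicate 1 and 10.3-fold in replicate 2, in TPM of all transcripts. The excess was smaller in protein-coding transcripts alone, where Cdk1 had 6.85 and 1.30 TPM and Ccnb1 had 2.09 and 0.42 TPM.

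The mitotic kinases and the chromosomal passenger complex were low, and 3 of their 5 genes were past 2-fold higher in replicate 1. Birc5, which encodes survivin, had 3.26 TPM from 58 counts in replicate 1 and 0.84 TPM from 31 counts in replicate 2, with a ratio of -1.38 (-2.12 to -0.79). Cdca8, which encodes borealin, had 3.55 and 0.77 TPM from 76 and 42 counts, with a ratio of -1.35 (-1.98 to -0.83). Both proteins belong with Aurkb to the passenger complex, which corrects faulty attachments of chromosomes. Of the TPM of Cdca8 in replicate 1, 53.8% was in Cdca8-204, a processed transcript of 712 bases that was at 0 in replicate 2. Plk1, polo-like kinase 1, had 0.87 and 0.32 TPM from 42 and 26 counts, with a ratio of -1.16 (-2.0 to -0.49). The aurora kinase genes did not follow. Aurka had 0.91 and 0.88 TPM from 36 and 59 counts, and Aurkb had 0.69 and 0.64 TPM from 27 and 43 counts. Their ratios were 0.17 (-0.45 to 0.81) and 0.12 (-0.60 to 0.88), intervals that exclude a 2-fold difference in either direction by counting error alone.

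Of the 5 genes of the spindle assembly checkpoint and the kinetochore, 4 were past 2-fold higher in replicate 1. The highest was Cenpe, a kinesin that carries chromosomes to the spindle equator, at 5.10 TPM from 974 counts and 1.94 TPM from 592 counts. Its counts gave a ratio of -1.25 with a narrow interval (-1.41 to -1.11). Ttk, the kinase that starts checkpoint signalling, had 0.51 and 0.08 TPM from 33 and 9 counts, with a ratio of -2.15 (-3.66 to -1.32). Bub1, a checkpoint kinase, had 0.48 and 0.29 TPM, but 38 and 8 counts, which gave a ratio of -2.47 (-4.10 to -1.67). In replicate 2, 71.8% of its TPM was in Bub1-205, a processed transcript of 438 bases, from 1.69 counts. For Bub1 the TPM therefore understates the difference in counts. Bub1b, which encodes the checkpoint protein BubR1, had 0.59 and 1.04 TPM from 34 and 54 counts and a ratio of 0.12 (-0.52 to 0.79). Its higher TPM in replicate 2 is not matched by the counts, since 66.0% of the TPM in replicate 2 was in Bub1b-203, a retained-intron model of 385 bases, from 4.11 counts. Cenpf, a large protein of the outer kinetochore, had 25 counts in replicate 1 and 3 in replicate 2, with a ratio of -2.85 (-5.97 to -1.89).

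Both partners of the anaphase-promoting complex, the ubiquitin ligase that ends mitosis, were past 2-fold higher in replicate 1. Ube2c, its ubiquitin-conjugating enzyme (ENSMUSG00000001403.13), had 10.3 TPM from 178 counts in replicate 1 and 0.81 TPM from 24 counts in replicate 2. The ratio of -3.31 (-4.11 to -2.81) was the lowest of the 32 genes. All of its TPM was in the coding transcript Ube2c-202 in both libraries. Cdc20, the activator that the checkpoint restrains, had 0.40 and 0.08 TPM from 15 and 4 counts, with a ratio of -1.92 (-4.50 to -0.80). A list of 16 genes holds the core subunits of the same complex and, beside them, the ubiquitin-conjugating enzymes Ube2s and Ube2d1, which work with it as Ube2c does. All 16 reached 1 TPM in each library and the median was 25.8 TPM in both. None was past 2-fold higher in replicate 1, while 9.83% of all tested genes were. Only the enzyme gene Ube2d1 (45.4 and 91.9 TPM) was past 2-fold higher in replicate 2, while 6.98% of all tested genes were. Whether this list differed from those shares was not tested. The highest of the list was Ube2s at 130 and 195 TPM, and the lowest was the core subunit gene Cdc23 at 4.0 and 3.96 TPM. The counts of Ube2s, 2571 and 3071, gave a ratio of -0.28 (-0.36 to -0.21), opposite in direction to its TPM.

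Of the 5 genes grouped as kinesin motors, which leave out the kinesin gene Cenpe above, Kif11 was past 2-fold higher in replicate 1 and 4 lay within 2-fold. Kif11, the motor that pushes the spindle poles apart, had 0.62 TPM from 71 counts and 0.14 TPM from 26 counts, with a ratio of -1.90 (-2.70 to -1.32). Kif4, a chromosome-bound motor, had 2.26 and 1.95 TPM from 250 and 380 counts, a ratio of 0.06 (-0.17 to 0.30). Kif20a, a motor of the central spindle, had 0.60 and 0.66 TPM from 45.5 and 62.9 counts, a ratio of -0.05 (-0.63 to 0.53). Kif2c, which takes microtubules apart at kinetochores, had 0.28 and 0.24 TPM from 18 and 16 counts, and its ratio of -0.64 had an interval from -1.78 to 0.35, which neither shows nor excludes a difference past 2-fold. Kif23, which bundles microtubules for cytokinesis, had 1.58 and 1.42 TPM from 39 and 56 counts, a ratio of -0.02 (-0.63 to 0.61). Of its TPM, 70.6% and 49.1% were in Kif23-212, a processed transcript of 392 bases, from 3.61 and 4.36 counts. Its level depended on the quantification, since the second deposited quantification gave 20.8 and 14.6 TPM, of which 19.6 and 12.9 TPM were in Kif23-202, a processed transcript of 632 bases that the first left at 0.

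Tpx2 stood apart from the other spindle proteins. Tpx2 (ENSMUSG00000027469.16, chr2:152847964-152895321, plus strand) encodes the protein that activates aurora kinase A on spindle microtubules. It had 28.2 TPM from 2282 counts in replicate 1 and 58.3 TPM from 7890 counts in replicate 2, with a ratio of 1.25 (1.18 to 1.32). Its mean of 43.3 ± 21.3 TPM (SD, n = 2) was 4.32 times that of Cdk1, the next highest when all transcripts are counted. In protein-coding transcripts alone Cdk1 had 6.85 and 1.30 TPM, below Mki67 at 8.78 and 7.89 TPM. The coding transcript Tpx2-202 took 83.3% and 93.1% of the TPM of Tpx2, and the second quantification gave Tpx2 a ratio of 1.25 as well. Aurka, which the protein activates, thus lay far below it, at under 1 TPM in both libraries. The other 3 genes of this role were past 2-fold higher in replicate 1. Nusap1 (2.82 and 0.93 TPM from 191 and 106 counts) and Prc1 (3.08 and 1.11 TPM from 195 and 126 counts), which bind and bundle spindle microtubules, had ratios of -1.37 and -1.16. Hmmr, a spindle protein and hyaluronan receptor, had 1.26 TPM from 114 counts and 0.14 TPM from 19 counts, a ratio of -2.98 (-3.91 to -2.42). That difference depended on the quantification. The second gave Hmmr 402 and 404 counts and a ratio of -0.46, which is within 2-fold.

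Regulators of cytokinesis were lower in replicate 2, with 2 of 3 past 2-fold. Shcbp1, a binding partner of centralspindlin, had 1.84 TPM from 87 counts and 0.18 TPM from 14 counts, with a ratio of -2.98 (-4.10 to -2.35). Racgap1, a subunit of centralspindlin, had 2.35 and 1.04 TPM from 157 and 103 counts, a ratio of -1.13 (-1.52 to -0.78). Ect2, the exchange factor that switches on RhoA at the division plane, had 0.91 and 0.50 TPM from 62 and 45 counts. Its ratio of -0.97 (-1.59 to -0.43) lay just within 2-fold, and the nearest genes past it were Ncapd2 at -1.06 and Racgap1.

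Among genes of mitotic chromosomes, Top2a and the condensin genes were higher in replicate 1 and Mki67 was not. Top2a, the topoisomerase that untangles sister chromatids (ENSMUSG00000020914.17), had 5.70 TPM from 549 counts and 0.75 TPM from 138 counts, with a ratio of -2.51 (-2.81 to -2.26). The condensin subunit Ncapg had 0.67 and 0.09 TPM from 58.0 and 12.2 counts, with a ratio of -2.59 (-3.85 to -1.90). Its partner Ncapd2 had 1.17 and 0.43 TPM from 79 and 54 counts, with a ratio of -1.06 (-1.62 to -0.57). Mki67, the proliferation marker that coats mitotic chromosomes (ENSMUSG00000031004.8), had 8.78 TPM from 2150 counts and 7.89 TPM from 3151 counts. Its ratio of 0.01 had an interval of only -0.07 to 0.09. The best-counted genes thus went different ways, with Tpx2 higher in replicate 2, Mki67 level and Cenpe higher in replicate 1. Tpx2 and Mki67 together held 52.8% of the counts of the 32 genes in replicate 1 and 83.3% in replicate 2.

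Other genes of G2 and mitosis were mostly scarce as well. Of the 75 genes on that list, 24 reached 1 TPM in both libraries, and the medians were 0.81 and 0.36 TPM. Of the 63 that could be tested, 25 were past 2-fold higher in replicate 1 and 1, Incenp, was past it in replicate 2, with a median ratio of -0.71. Of all tested genes, 9.83% were past 2-fold higher in replicate 1 and 6.98% in replicate 2, as given above. Of the 63, 13 did not reach the filter's minimum in both libraries, and 10 of these, Pbk and Spc24 among them, were counted among the 25. Without the 13, 15 of 50 were past 2-fold higher in replicate 1 (7.42% of all genes that reached it in both). Whether this list differed from the 32 genes was not tested. Incenp, the scaffold of the passenger complex, had 8.66 and 20.2 TPM. The 25 included the kinetochore genes Spc25 (4.89 and 0.89 TPM, a ratio of -2.36), Nuf2, Ndc80, Spc24 and Knl1, the condensin gene Smc2 (3.84 and 1.29 TPM), the CDK1 partner Cks1b (6.23 and 2.12 TPM) and the mitotic kinase gene Pbk (1.55 and 0.08 TPM, a ratio of -3.40). The highest of the list were Pttg1, which encodes securin, at 158 and 281 TPM, the kinetochore gene Zwint at 42.2 and 44.0 TPM and the checkpoint gene Bub3 at 24.5 and 25.9 TPM, all 3 within 2-fold. Of the TPM of Pttg1, 158 and 151 TPM were in protein-coding transcripts. The lowest was Sapcd2, with 0 and 2 counts. Like Tpx2, these 3 genes lay above the cyclins Ccna2, Ccnb1 and Ccnb2 in both libraries.

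Genes of the preceding phases were more abundant and differed less. The 42 genes of DNA replication and G1/S had median levels of 2.5 and 1.56 TPM, and 24 of the genes were at or above 1 TPM in both. The median mitotic gene over the median gene of this list gave log2 ratios of -0.68 and -1.26 in the libraries, a mean of -0.97 ± 0.415 (SD, n = 2). Pcna, the replication clamp, led at 354 and 271 TPM, followed by Rfc3 at 45.4 and 48.9 TPM and Mcm6 at 28.3 ± 0.389 TPM (SD, n = 2). Of the 42, 9 were past 2-fold higher in replicate 1, while 9.83% of all tested genes were. Only Chaf1b was past 2-fold higher in replicate 2, while 6.98% of all genes were. The median ratio was -0.32. The lowest ratio was that of Rrm2, a ribonucleotide reductase subunit, at -3.33 from 63 and 7 counts. Rrm2, Cdc45 and Clspn passed the filter through replicate 1 alone. Without them 6 of 39 (15.4%) were past 2-fold higher in replicate 1, compared with 7.42% of all genes that reached the filter's minimum in both libraries.

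Transcripts of the factors that bind CHR elements and CCAAT boxes, and of the inhibitors of CDKs, were present in both libraries. Of 24 genes of DREAM, MuvB, E2F and NF-Y, 20 reached 1 TPM in both, and the medians were 6.56 and 8.60 TPM. Nfya, an NF-Y subunit, had 58.7 and 88.8 TPM, and the repressor Rbl1 had 61.0 and 61.9 TPM. Of the 23 that could be tested none was past 2-fold higher in replicate 1, while 9.83% of all tested genes were. Only the repressor E2f8 (5.13 and 11.4 TPM) was past 2-fold higher in replicate 2, while 6.98% of all tested genes were. Whether these regulators differed from those shares was not tested. The activators of G2 genes were low, with Foxm1 at 1.41 and 1.21 TPM from 99 and 186 counts, and Mybl2 at 0.26 and 0.88 TPM from 22 and 57 counts. These activators were picked out after their values were seen. Of 12 genes of CDK inhibitors and G1 cyclins, 10 reached 1 TPM in both libraries. Cdkn1a, which encodes the CDK inhibitor p21, led at 750 and 1002 TPM, which was 479 times the median mitotic gene in replicate 1 and 1542 times in replicate 2. Ccnd2, a D-type cyclin of G1, followed at 90.0 and 112 TPM. Cdkn1c, another inhibitor, had 23.4 and 99.5 TPM and was past 2-fold higher in replicate 2, with a ratio of 1.80.

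**Figure D5:**
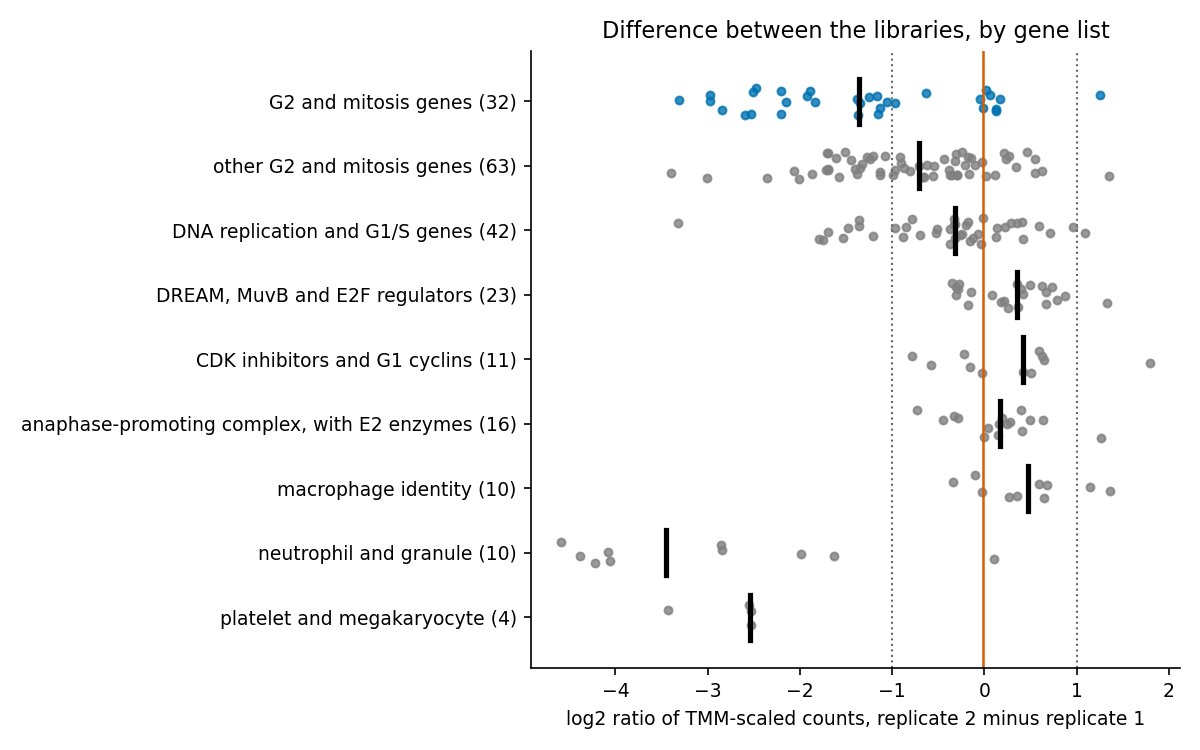
Log2 ratio, replicate 2 minus replicate 1, of each tested gene by list (number tested in brackets). Black bars are list medians, the orange line is the median of all 13260 tested genes at -0.01, and dotted lines mark 2-fold. The median lies at -1.36 for the G2 and mitosis genes and at 0.35 for the DREAM, MuvB and E2F regulators.

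CHR matches were present both in genes that differed between the libraries and in genes that did not differ past 2-fold. Of the 20 genes past 2-fold higher in replicate 1 that had a promoter window, 16 held the hexamer. Of the 7 genes within 2-fold that had a window, 7 did. Mki67, Kif4 and Kif23, shown above with their CHR hexamers in capitals, had ratios near 0. Ccnb1, without either form of the hexamer searched, had a ratio of -2.20. These counts are a description, since the promoters are those of the reference and do not differ between the libraries.

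Transcript models agreed for most of the genes. For 26 of the 32 the leading transcript was the same in both libraries. Leading transcripts were protein-coding in both libraries for 25 genes. The exceptions in both libraries were Cdk1 and Kif23, with Cdca8 in replicate 1 and Bub1, Bub1b, Ect2 and Kif2c in replicate 2. In Ect2, 46.2% of the TPM in replicate 2 was in Ect2-205, a model of 687 bases annotated as subject to nonsense-mediated decay, from 4.16 counts. Short models with few counts thus moved the TPM of these genes, and their ratios above are taken from counts. Exons of 10 of the 32 genes (Ccna2, Cdc20, Cdca8, Kif20a, Kif4, Ncapg, Nusap1, Plk1, Prc1 and Ube2c) overlap a gene on the opposite strand, and as the sources do not say whether counting used strand, reads of the partner may be among their counts.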

How the data were processed

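RNA was measured in 1 group of 2 libraries. The authors deposited expected counts (estimated reads, with no normalization), TPM and FPKM per gene and, per transcript, the percent of the gene's TPM, in RSEM's table layout, and a second transcript quantification in kallisto's, per the file headers. The build is mm10 with GENCODE M21, per the labels and files. Software versions and the use of strand in counting: not given in the sources used here. Rows without a gene symbol held 0.145% and 0.097% of counts and were left out. The members and lists were chosen with earlier results of these data known. All 32 members are named. Of other lists the 3 highest by mean TPM, the lowest and those past 2-fold could be named; Foxm1, Mybl2 and the bands of summed counts were chosen after their values were seen. Expected counts were rounded, filtered by filterByExpr of edgeR 4.0.16 with each library as its own group (minimum count 10, 13260 genes) and scaled by TMM. Ratios use a prior count of 2. The ratio script was tested on simulated data. Intervals are exact binomial (95%, scipy 1.17.1) on rounded counts. GC content is of the leading transcript, and its trend was fitted with length by loess (span 0.5). TPM medians carry the SD of the 2 libraries. Promoters are from RefSeq.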

Additional observations from a re-analysis of the deposited data

How the results depend on the processing

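The number of genes at 1 TPM in both libraries, 8, became 5 with FPKM, 18 at a threshold of 0.5 TPM and 3 at 2 TPM, and 9 to 19 with either library left out. It was 9 in the second quantification and 7 with protein-coding transcripts alone, the latter chosen after seeing the data. With both libraries kept, the median level of 1.11 TPM ran from 0.73 with FPKM to 1.34 TPM under the alternatives. The latter value arose when only nuclear genes that encode proteins set the TPM total. These moves were smaller than the SD of the libraries, 0.647 TPM. With a library left out the level is that of the other, 0.65 or 1.57 TPM. For 2 libraries that move is always smaller than their SD, so it cannot show whether the level is stable. The median ratio of -1.36 stayed negative throughout, at -1.56 with library totals alone (which moves the median of all genes to -0.21), -1.32 with no filter, -1.28 with a prior count of 5, -1.18 in the second quantification and -1.18 with a filter on both libraries, which was added later and leaves out 5 genes. The count past 2-fold higher in replicate 1 stayed between 17 and 23 under the other scalings, filters, prior counts and quantification. It was 24 at 1.5-fold and 14 at 3-fold. The shares of all genes past 1.5-fold and 3-fold were not computed, so those counts have no background beside them. The count in the other direction was 1 throughout, and 0 at 3-fold. The log2 ratio to the G1/S genes of -0.97 ran from -1.26 to -0.68 under its alternatives. Leading transcripts were the same in 24 genes in the second quantification (26 in the first), and CHR hexamers were found in 22 genes with TTTGAA alone and 21 within 100 bases (23 in the whole window). Ratios between the libraries cannot be recomputed with a library left out. No paired analysis was possible because there is 1 group. In replicate 2, 18 of the 32 genes had fewer than 50 counts, which limits what can be said of each.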

Other observations

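The quantifications agreed on the counts of most of the mitotic genes and not of all. For 29 of the 32 genes the estimated counts were within 1.5-fold of each other in both libraries, and the exceptions were Cenpf, Hmmr and Kif23. Hmmr-201, the transcript with nearly all of Hmmr's counts, shares at least 1 stretch of 31 bases, on either strand, with 355 transcripts of other genes, and Kif23-202 with 1083, while Cdk1-202 shares none and Tpx2-202 shares such a stretch with 2. The second quantification also gave Kif4-203, a retained-intron transcript of 694 bases, 12.0 and 58.6 counts where the first gave 0, and Kif4-203 shares a stretch with 108 transcripts. What these shared stretches did to the counts was not tested.

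Of the genes whose exons overlap a gene on the opposite strand, the partner was abundant for Kif4, where Pdzd11 had 73.6 and 71.2 TPM and shares 832 exonic bases, for Ccna2, where Exosc9 had 31.04 and 19.99 TPM and shares 510, and for Cdc20, where Elovl1 had 85.0 and 130 TPM and shares 53. Kif20a shares 1271 bases with Cdc23, a subunit of the anaphase-promoting complex, at 4.0 and 3.96 TPM. Ube2c shares 592 bases with the muscle gene Tnnc2, which was at 0 counts in both libraries. On the same strand, Ncapd2 overlaps the small RNA gene Scarna10, with 0 counts in replicate 1 and 34 in replicate 2. The pseudogene Ccnb2-ps had 3 and 4 counts, compared with 95 and 22 for Ccnb2, and Ccnb1-ps and Kif4-ps had 0 in both libraries.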
